A study of Danio rerio with 24 samples.

Results

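The pronephros, the larval kidney of the zebrafish (Danio rerio), and the ionocytes of the skin share the task of keeping ions in a freshwater larva, and 36 genes that serve them were followed here through exposure to arsenite and to uranyl nitrate. The genes were taken by symbol. All 36 were found among the 39974 genes of the deposited expression table, and all 36 were among the 22682 genes tested. They comprise 4 podocyte genes, 3 nephron transcription factor and adhesion genes, 3 endocytosis genes, 11 tubule transporter and channel genes, 5 catalytic subunits of the Na,K-ATPase, 9 ionocyte genes and 1 stanniocalcin gene. RNA came from whole larvae of the wildtype AB strain at 5 days after fertilization, in pools of 10 larvae per library. The 6 groups had 4 libraries each (n = 4 throughout): vehicle, 2 doses of sodium arsenite (1 and 10 µM), 2 doses of uranyl nitrate (30 and 300 µg/L), and a mixture that joins both low doses. Exposure ran from 4 hours after fertilization to collection, in diluted Danieau's solution, an embryo medium. Which spawning each pool came from is not stated, so the p-values measure the spread between pools.

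In the kidney, podocytes hold back protein at the glomerular filter, the first tubule segments take up filtered protein and solutes by endocytosis and cotransport, and later segments recover sodium and chloride. Larval fish before full gill function exchange ions through skin ionocytes, which in zebrafish fall into types that take up calcium, secrete acid or take up sodium and chloride. All of these cells depend on the Na,K-ATPase, the pump that sets the sodium gradient. Uranium is known as a toxicant of the proximal tubule in mammals.

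Values are FPKM, that is, fragments counted per gene, corrected for gene length and sequencing depth, so levels can be compared between genes. Whole read numbers recovered from these values gave 15456855 to 22987081 reads per library, and a member rested on between 0 (foxi3b in 1 library) and 17031 reads (atp1a1a.1). Changes are given as log2 differences, the mean of log2(FPKM + 1) in one group minus that in another, with limma's standard error (SE) and a p-value adjusted over all 22682 genes of the comparison. A gene is called at an adjusted p under 0.05. In a whole-larva library, fewer cells of a type and less RNA per cell cannot be told apart.

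Transcripts of all 36 genes were present in every group, and whole-larva RNA does not tell which cells they came from. Of the 36 genes, 35 had an FPKM above 0 in all 24 libraries, 10 had a mean of at least 10 FPKM, 23 of 1 to 10 and 3 below 1. The Na,K-ATPase gene atp1a1a.1 stood highest at a mean of 215 FPKM over all libraries, followed by its tandem copy atp1a1a.4 at 123 FPKM and the cytosolic carbonic anhydrase gene ca2 at 73.6 FPKM. The lowest were nphs1 at 0.960, stc1 at 0.838 and foxi3b at 0.206 FPKM. In the plot of levels, the spread between groups is small beside the distance between genes. The median within-group SD of the members was 0.133 on the log2 scale, against 0.138 over all genes tested.

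**Figure D1:**
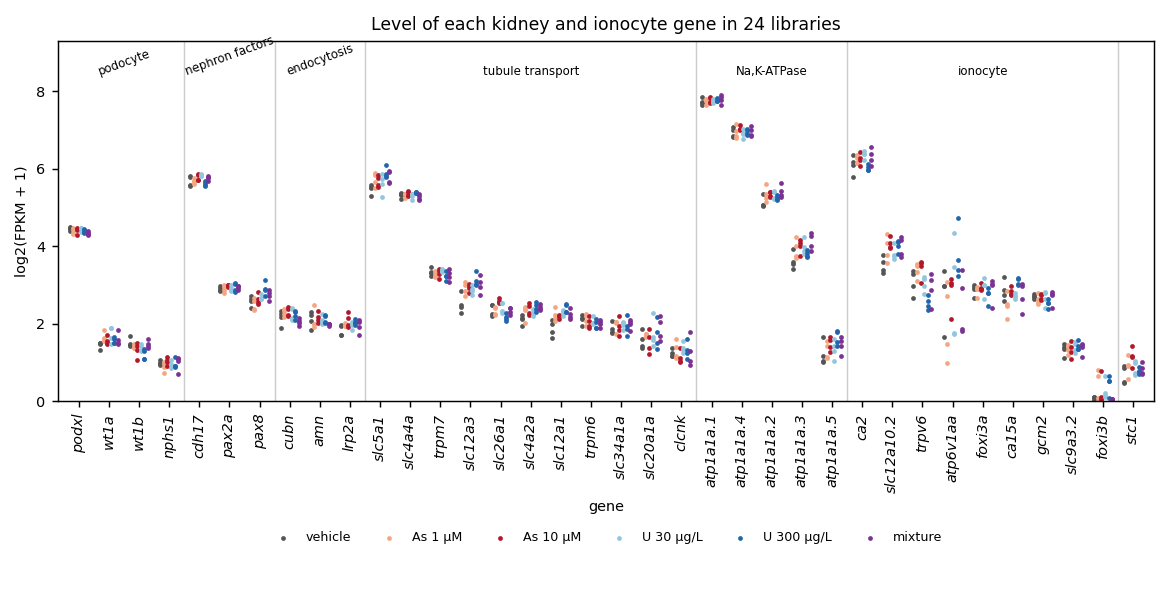
Level of each of the 36 genes in every library on the log2(FPKM + 1) scale (y axis), with genes on the x axis ordered by role and then by level (stc1 stands alone at the right). Each point is 1 library and colours mark the 6 groups. The genes span from 215 FPKM for atp1a1a.1 to 0.206 FPKM for foxi3b, and atp6v1aa has the widest scatter within groups.

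Across the 5 exposures against vehicle, 2 members were called, both in 300 µg/L uranyl nitrate and both higher. They are slc12a1 and slc12a3, which encode the sodium-chloride cotransporters of the distal nephron segments. The share of all genes called in that comparison was 1.77%, or 0.877% in the higher direction, and 2 of 36 members is 5.56%. The 1 µM arsenite dose called 0 members (0.132% of all genes), 10 µM arsenite 0 (0.727%), 30 µg/L uranyl nitrate 0 (0% of genes) and the mixture 0 (0.406%) by limma. limma-voom on the recovered reads also called 0 members in each of these 4 comparisons. At an unadjusted p under 0.05 there were 8 members at 1 µM arsenite (22.2%, against 6.74% of all genes), 10 at 10 µM (27.8% against 10.34%), 6 in 30 µg/L uranyl nitrate (16.7% against 7.14%), 11 at 300 µg/L (30.6% against 16.6%) and 8 in the mixture (22.2% against 10.7%). Of 28 marker genes of other tissues, described below, 1, 6, 3, 10 and 4 had an unadjusted p under 0.05 in these comparisons, in the same order. As a share, this was above that of the members at 300 µg/L uranyl nitrate and below it in each other comparison. It was above the share over all genes in each comparison except 1 µM arsenite. The members were chosen with earlier results of these data known, and the 5 comparisons share the vehicle libraries. The median log2 difference of the 36 members was 0.045 and 0.089 at 1 and 10 µM arsenite, 0.095 and 0.071 at the lower and the higher uranyl nitrate dose, and 0.036 for the mixture, beside -0.0068, 0.0083, 0.0013, -0.0046 and -0.017 over all genes tested.

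The vehicle mean lay below all 5 exposed means for 14 of the 36 members and above all 5 for 3. Over all genes tested, these shares were 13.8% and 15.0%. Counting members with no overlap between exposed and vehicle libraries gave 1 at 1 µM arsenite (2.78%, against 3.66% of all genes), 3 at 10 µM (8.33% against 6.13%), 2 in 30 µg/L uranyl nitrate (5.56% against 4.34%), 9 at 300 µg/L (25% against 9.75%) and 3 in the mixture (8.33% against 4.92%).

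Comparisons without vehicle called 4 more members. At 300 against 30 µg/L uranyl nitrate 2 of 36 were lower (5.56%), cdh17 and ca2, where 6.65% of all genes were called and 4.03% were lower. This count is near the share over all genes. At an unadjusted p under 0.05 there were 9 members (25%, against 20.9% of all genes). In 300 µg/L uranyl nitrate against 10 µM arsenite 2 of 36 were lower (5.56%), slc26a1 and trpv6, where 1.03% of all genes were called and 0.723% were lower. Here 7 members had an unadjusted p under 0.05 (19.4%, against 13.3% of all genes). The arsenite doses differed in 0 members (0.176% of all genes), the mixture differed from arsenite alone in 0 (0.00441%) and from uranyl nitrate alone in 0 (0.238%), and 0 departed from additivity (0.0353%), taken as the effect of the mixture less the summed effects of its parts. At an unadjusted p under 0.05 these 4 comparisons had 2, 3, 2 and 3 members (5.56%, 8.33%, 5.56% and 8.33%), against 6.11%, 7.93%, 11.2% and 7.33% of all genes, which is near or below the background, and limma-voom called 0 in each. Over the 36 members the departure ranged from -0.52 to 0.38 on the log2 scale, with intervals reaching from -1.31 to 2.01.

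**Figure D2:**
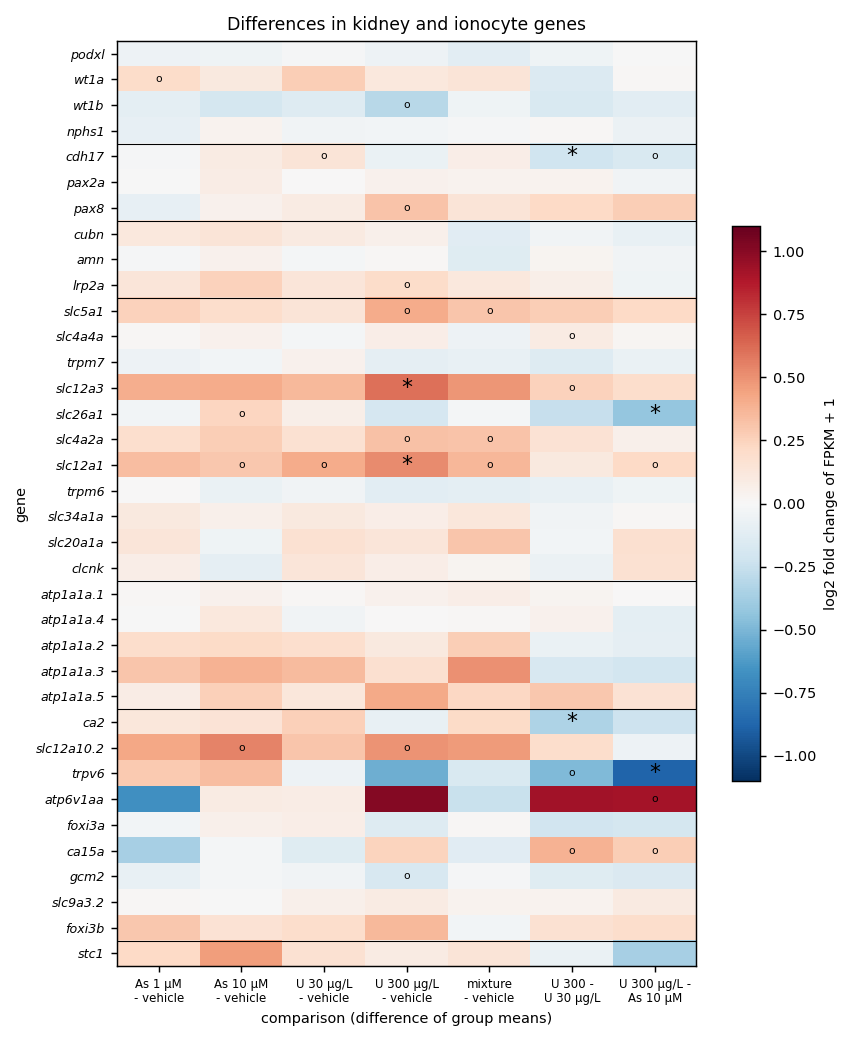
Log2 difference (fold change) of FPKM + 1 (colour) for each gene (rows, by role) in 7 comparisons (columns; As, sodium arsenite; U, uranyl nitrate). A star marks an adjusted p under 0.05 and a small circle marks groups without overlap that were not called. The 2 stars against vehicle stand at slc12a1 and slc12a3 in 300 µg/L uranyl nitrate.

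Among the podocyte genes, 0 of 4 were called in any comparison. podxl, which encodes the podocyte surface sialomucin podocalyxin, led the group. In FPKM, the libraries gave 20.8, 21.3, 20.02 and 21.2 in vehicle, 21.3, 20.4, 18.8 and 19.4 in 1 µM arsenite, and 20.2, 20.5, 18.5 and 21.2 in 10 µM arsenite. With uranyl nitrate the values were 19.6, 21.1, 20.7 and 21.3 at the lower dose and 19.2, 20.9, 20.4 and 19.5 at the higher dose, with 18.8, 18.6, 19.3 and 20.05 in the mixture. The groups overlapped, with a span from 18.5 to 21.3 FPKM over all 24 libraries. wt1a, a transcription factor gene required for podocytes, was next in level. Its FPKM values were 1.47, 1.83, 1.79 and 1.82 in vehicle, 2.53, 2.05, 1.90 and 2.07 in 1 µM arsenite, and 1.91, 1.78, 2.25 and 1.83 in 10 µM arsenite. The uranyl nitrate libraries gave 2.102, 2.68, 2.68 and 1.79 at the lower dose and 1.85, 2.06, 1.82 and 2.13 at the higher dose, with 1.97, 2.57, 1.80 and 1.78 in the mixture. All 4 libraries of 1 µM arsenite lay above all 4 of vehicle, although the lowest vehicle library stands apart from the other 3 (log2 difference 0.20, SE 0.0969, adjusted p 0.741). For its paralog wt1b the values went the other way. FPKM was 1.79, 1.74, 2.23 and 1.69 in vehicle, 1.60, 1.75, 1.68 and 1.56 in 1 µM arsenite, and 1.66, 1.07, 1.49 and 1.82 in 10 µM arsenite. In the uranyl nitrate groups it was 1.48, 1.44, 1.77 and 1.67 at the lower dose and 1.55, 1.44, 1.12 and 1.13 at the higher dose, with 2.01, 1.69, 1.59 and 1.78 in the mixture. All 4 libraries at 300 µg/L uranyl nitrate lay below all 4 of vehicle (log2 difference -0.31, SE 0.0908, adjusted p 0.0807), which did not pass the threshold. The slit diaphragm gene nphs1 ranged from 0.612 to 1.21 FPKM, with differences from vehicle between -0.093 and 0.035 on the log2 scale.

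The nephron factors pax2a and pax8, which specify the pronephros, and cdh17, a cadherin of its tubule and duct epithelium, made up the next group, with 1 of 3 called. cdh17 (NCBI Gene 378452) was lower at 300 than at 30 µg/L uranyl nitrate. The libraries measured, in FPKM, 54.3, 46.6, 46.2 and 55.0 in vehicle, 52.9, 49.2, 47.2 and 50.2 in 1 µM arsenite, and 56.8, 50.7, 55.8 and 51.5 in 10 µM arsenite. Uranyl nitrate libraries stood at 55.7, 55.5, 57.1 and 55.0 at the lower dose and 49.9, 46.6, 48.8 and 45.9 at the higher dose, with 50.04, 54.2, 53.0 and 54.8 in the mixture. The groups at 30 µg/L (at least 55.0 FPKM) and at 300 µg/L (at most 49.9 FPKM) did not overlap, and vehicle, at 46.2 to 55.0 FPKM, overlapped the higher dose (log2 difference -0.22, SE 0.0551, adjusted p 0.0217). This call was lost without replicate 2 or 4 of the 300 µg/L group or replicate 3 of the 30 µg/L group, with adjusted p-values up to 0.0721, and after scaling all libraries to 1 common FPKM sum (0.0509). At 30 µg/L all 4 libraries lay above vehicle, the lowest by a small margin (log2 difference 0.15, SE 0.0551, adjusted p 0.59). pax8 stood highest at 300 µg/L. In FPKM, the libraries gave 4.97, 5.53, 5.21 and 4.32 in vehicle, 4.07, 4.99, 4.23 and 5.36 in 1 µM arsenite, and 5.21, 4.85, 4.70 and 6.01 in 10 µM arsenite. With uranyl nitrate the values were 5.22, 5.36, 5.77 and 5.19 at the lower dose and 7.67, 6.46, 6.23 and 5.56 at the higher dose, with 5.51, 5.90, 6.24 and 4.93 in the mixture. The 4 libraries there lay just above all vehicle libraries (log2 difference 0.31, SE 0.0924, adjusted p 0.081), without passing the threshold. pax2a spanned 5.93 to 7.33 FPKM over all libraries, with differences from vehicle between -0.0017 and 0.079 on the log2 scale.

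The endocytosis genes encode the receptors megalin (lrp2a) and cubilin (cubn) and the cubilin anchor amnionless (amn), by which the proximal tubule recovers filtered protein. None of the 3 was called. cubn led by level. Its FPKM values were 2.71, 3.77, 3.47 and 4.04 in vehicle, 3.75, 4.18, 4.01 and 3.49 in 1 µM arsenite, and 4.19, 3.64, 3.59 and 4.36 in 10 µM arsenite. The uranyl nitrate libraries gave 4.32, 3.29, 4.16 and 3.45 at the lower dose and 4.00, 3.54, 3.88 and 3.25 at the higher dose, with 2.83, 3.18, 3.38 and 3.05 in the mixture. The groups overlapped in each exposure against vehicle, and the 4 mixture libraries lay below the 4 of 1 µM arsenite (log2 difference -0.24, SE 0.0916, adjusted p 0.512). lrp2a gave the following values. FPKM was 2.26, 2.82, 2.24 and 2.91 in vehicle, 2.82, 2.88, 3.00 and 2.83 in 1 µM arsenite, and 2.73, 3.42, 2.92 and 3.88 in 10 µM arsenite. In the uranyl nitrate groups it was 2.88, 3.099, 3.05 and 2.57 at the lower dose and 3.31, 3.08, 3.01 and 2.92 at the higher dose, with 2.28, 3.26, 3.13 and 2.74 in the mixture. Its 4 libraries at 300 µg/L uranyl nitrate, from 2.92 to 3.31 FPKM, lay above vehicle by a margin smaller than the spread within vehicle (log2 difference 0.20, SE 0.0903, adjusted p 0.262). amn spanned 2.59 to 4.601 FPKM, with differences from vehicle between -0.13 and 0.048 on the log2 scale.

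In the tubule group, 2 of 11 genes were called against vehicle at 300 µg/L uranyl nitrate, both of them salt cotransporters. slc12a1 (NCBI Gene 100329975) encodes the sodium-potassium-chloride cotransporter that loop diuretics block in mammals. The libraries measured, in FPKM, 2.43, 3.29, 2.11 and 2.96 in vehicle, 3.44, 4.35, 3.21 and 3.64 in 1 µM arsenite, and 3.30, 3.57, 3.63 and 3.57 in 10 µM arsenite. Uranyl nitrate libraries stood at 3.87, 3.61, 4.07 and 3.97 at the lower dose and 4.65, 4.56, 3.94 and 3.93 at the higher dose, with 3.34, 3.52, 3.77 and 4.29 in the mixture. All 4 libraries lay above all 4 of vehicle in 10 µM arsenite, in both uranyl nitrate groups and in the mixture, and 1 arsenite 1 µM library lay within the vehicle range. The mean rose from 2.70 ± 0.527 FPKM in vehicle to 4.27 ± 0.390 FPKM at 300 µg/L uranyl nitrate (log2 difference 0.52, SE 0.0910, adjusted p 0.00857). The arsenite doses gave log2 differences of 0.34 and 0.30 (adjusted p 0.204 and 0.169), the lower uranyl nitrate dose 0.41 (0.327) and the mixture 0.36 (0.104). The call at 300 µg/L held without each of the 8 libraries in turn (adjusted p 0.00213 to 0.0394) and was lost when only these 2 groups entered the fit (0.0812).

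slc12a3 (NCBI Gene 565439) encodes the sodium-chloride cotransporter that thiazides block in mammals. In FPKM, the libraries gave 4.37, 6.20, 3.87 and 4.61 in vehicle, 7.03, 7.48, 5.59 and 6.10 in 1 µM arsenite, and 5.89, 6.58, 7.04 and 6.84 in 10 µM arsenite. With uranyl nitrate the values were 5.66, 6.93, 6.13 and 6.45 at the lower dose and 9.16, 7.12, 6.98 and 7.62 at the higher dose, with 8.47, 7.47, 6.66 and 5.65 in the mixture. The 4 libraries at 300 µg/L lay above all vehicle libraries, and 1 vehicle library reached into the range of the other exposures. The mean rose from 4.76 ± 1.00 FPKM to 7.72 ± 0.998 FPKM (log2 difference 0.61, SE 0.117, adjusted p 0.0129). In the mixture the mean was 7.06 ± 1.19 FPKM (log2 difference 0.49, SE 0.117, adjusted p 0.0764), which did not pass. The call at 300 µg/L was lost without vehicle replicate 1 (adjusted p 0.0571) or vehicle replicate 3 (0.0526) and in a fit of these 2 groups alone (0.0783). Between the uranyl nitrate doses neither cotransporter gene was called, with log2 differences of 0.11 (95% interval -0.080 to 0.30) for slc12a1 and 0.25 (0.012 to 0.50) for slc12a3. Neither was called between 300 µg/L uranyl nitrate and 10 µM arsenite (0.22 and 0.20, adjusted p 0.285 and 0.503).

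**Figure D3:**
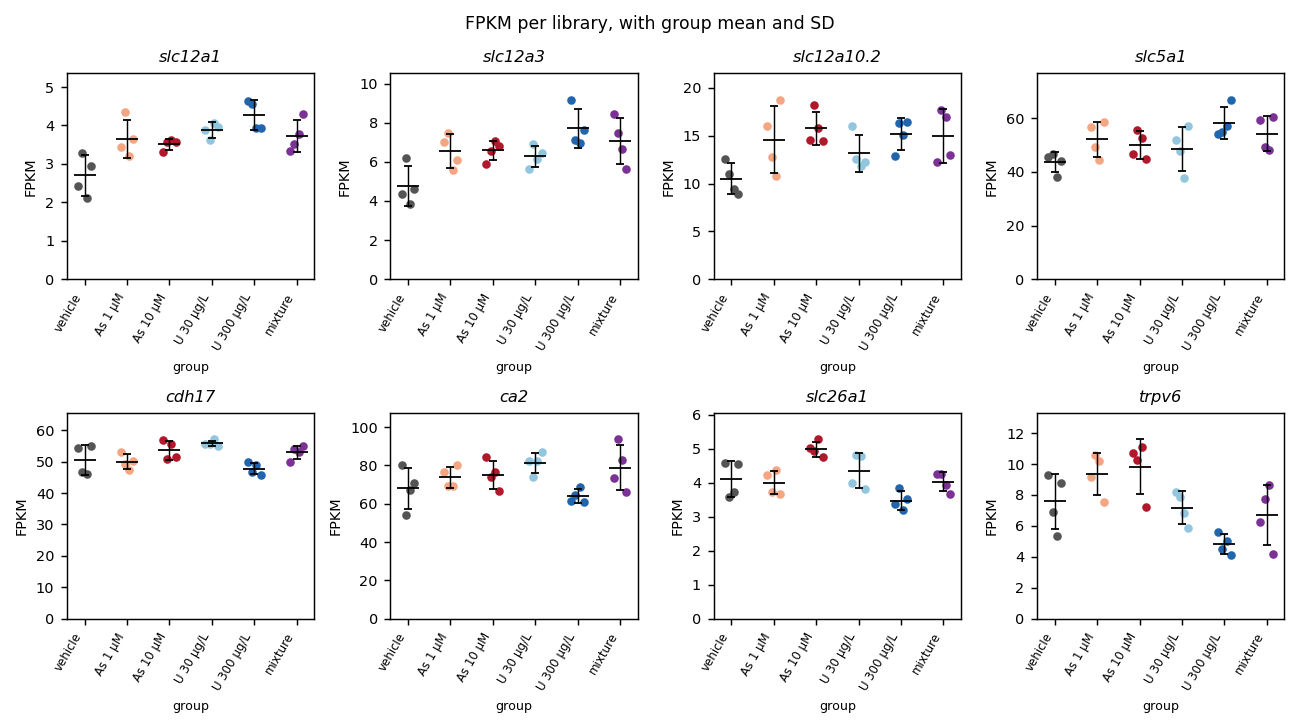
FPKM (y axis, from 0) of 8 genes in each library by group (x axis; As, sodium arsenite; U, uranyl nitrate). Points are libraries, and black bars give the group mean and SD (n = 4). slc12a1 at 300 µg/L uranyl nitrate lies above all vehicle libraries, cdh17 and ca2 are lower at 300 than at 30 µg/L, and slc26a1 and trpv6 are lower at 300 µg/L uranyl nitrate than at 10 µM arsenite.

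slc26a1 (NCBI Gene 791185), whose product exchanges sulfate for other anions in the proximal tubule, separated the 2 high doses. Its FPKM values were 4.59, 3.57, 3.73 and 4.55 in vehicle, 4.24, 3.73, 4.36 and 3.68 in 1 µM arsenite, and 5.01, 4.92, 5.27 and 4.74 in 10 µM arsenite. The uranyl nitrate libraries gave 3.99, 4.81, 4.79 and 3.82 at the lower dose and 3.36, 3.83, 3.19 and 3.52 at the higher dose, with 4.25, 4.26, 3.94 and 3.66 in the mixture. The 10 µM arsenite group stood above every other group except for 2 of the 30 µg/L uranyl nitrate libraries, and 3 of the 4 libraries of 300 µg/L uranyl nitrate lay below all vehicle libraries. Between them the gene was lower in uranyl nitrate (log2 difference -0.42, SE 0.0794, adjusted p 0.00807). That call held in all 8 leave-one-out fits, with adjusted p-values from 0.0107 to 0.0378. Against vehicle neither side was called, with 0.23 (adjusted p 0.245) for 10 µM arsenite and -0.19 (adjusted p 0.23) for 300 µg/L uranyl nitrate.

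The sodium-glucose cotransporter gene slc5a1, which the gut expresses as well, led the tubule group by level. FPKM was 45.4, 46.5, 38.2 and 44.1 in vehicle, 56.5, 49.1, 44.5 and 58.4 in 1 µM arsenite, and 46.6, 55.7, 52.6 and 44.8 in 10 µM arsenite. In the uranyl nitrate groups it was 51.8, 47.6, 37.6 and 56.9 at the lower dose and 54.1, 54.8, 56.9 and 66.7 at the higher dose, with 59.2, 49.4, 48.0 and 60.4 in the mixture. In the mixture and at 300 µg/L uranyl nitrate all 4 libraries lay above all 4 of vehicle (log2 difference 0.31, SE 0.114, adjusted p 0.311, and log2 difference 0.41, SE 0.114, adjusted p 0.0683, respectively). The anion exchanger gene slc4a2a showed the same absence of overlap. The libraries measured, in FPKM, 3.69, 3.45, 2.80 and 3.31 in vehicle, 4.19, 4.10, 3.04 and 4.34 in 1 µM arsenite, and 4.83, 4.46, 3.64 and 3.86 in 10 µM arsenite. Uranyl nitrate libraries stood at 4.19, 3.63, 3.59 and 3.95 at the lower dose and 4.53, 4.93, 4.21 and 3.94 at the higher dose, with 4.69, 4.17, 4.42 and 4.11 in the mixture. Its differences were 0.33 (adjusted p 0.0678) at 300 µg/L and 0.31 (adjusted p 0.157) in the mixture, each with an SE of 0.0911. Neither gene passed the threshold in any comparison. The other 6 tubule genes had 0 calls. The sodium bicarbonate cotransporter gene slc4a4a was among the steadiest, at 35.3 to 42.0 FPKM over all libraries. The magnesium channel genes trpm7 and trpm6 spanned 7.47 to 9.93 and 2.66 to 3.71 FPKM. The phosphate cotransporter genes slc34a1a and slc20a1a spanned 2.20 to 3.68 and 1.31 to 3.87 FPKM, and the chloride channel gene clcnk spanned 0.915 to 2.45 FPKM.

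Some gut, skin and liver markers were called in the same comparisons, while 0 markers of muscle, neurons, blood and exocrine pancreas were called in any comparison. This does not show that those tissues were unchanged. Against vehicle, the 4 blood markers had log2 differences of 0.11 to 1.05 at 30 µg/L uranyl nitrate and -0.049 to 0.94 at 300 µg/L. At 300 µg/L, 2 of these 4 had an unadjusted p under 0.05. The blood gene hbbe1.1 rested on 0 to 6 reads in vehicle, and the largest SE among the exocrine pancreas markers was 1.21. Of 28 marker genes of skin, liver, gut, muscle, neurons, blood and exocrine pancreas, 1 was called at 300 µg/L uranyl nitrate against vehicle, where 1.77% of all genes were called. It was the gut gene fabp2 (log2 difference 0.60, SE 0.116, adjusted p 0.0129). fabp2 was also called higher at 10 µM arsenite (log2 difference 0.67, SE 0.116, adjusted p 0.00362) and in the mixture (log2 difference 0.60, SE 0.116, adjusted p 0.0157), and the gut gene vil1 at 10 µM arsenite (log2 difference 0.44, SE 0.0741, adjusted p 0.00257). At 300 µg/L uranyl nitrate vil1 was not called (log2 difference -0.12, SE 0.0741, adjusted p 0.427), and the differences of the 4 liver markers were -0.36 to -0.41, with 3 at an unadjusted p under 0.05 and 0 called. Summed over the 3 gut markers, the level was 84.4 to 114 FPKM in vehicle, 85.5 to 100.0 at 300 µg/L uranyl nitrate and 129 to 136 FPKM in 10 µM arsenite, so that the 2 high doses did not overlap. This sum is mostly vil1, at 81.9 ± 7.61 FPKM at 300 µg/L uranyl nitrate and 121 ± 3.30 FPKM in 10 µM arsenite, while fabp2 stood at 6.34 ± 0.207 and 6.70 ± 0.596 FPKM and cdx1b at 5.08 ± 1.102 and 5.07 ± 0.591 FPKM. In the comparison of the high doses the gut gene vil1 was the 1 marker of 28 called (log2 difference -0.57, SE 0.0741, adjusted p 0.000122), where 1.03% of all genes were called. In that comparison the 5 skin markers had log2 differences of -0.453 to -0.000745, with 1 at an unadjusted p under 0.05 and 0 called. The 4 liver markers had -0.275 to -0.0403, with 0 at an unadjusted p under 0.05. Over all 28 markers, 10 were higher and 18 lower. The part of gut in the differences of slc26a1 and slc5a1 was not tested, nor was that of skin in the differences of trpv6 and other ionocyte genes. Whether the vil1 reads came from gut alone cannot be told from whole-larva RNA. Between the uranyl nitrate doses 3 of 28 markers were called lower, where 4.03% of all genes were called lower. They were krt4 (-0.35, adjusted p 0.0341), krt1-19e (-0.69, adjusted p 0.0339) and apoa2 (-0.49, adjusted p 0.0348). The sum of the 5 skin markers was 3614 to 4597 FPKM at 30 µg/L and 3096 to 3767 FPKM at 300 µg/L, and that of the 4 liver markers was 3599 to 4682 and 2708 to 3704 FPKM. The log2 differences were uneven, from -0.69 to -0.021 over the skin markers and from -0.49 to -0.025 over the liver markers. The liver sum is mostly apoa2, at 3244 ± 447 and 2305 ± 298 FPKM, while fabp10a stood at 511 ± 11.0 and 509 ± 100 FPKM. None of the 28 markers was at 0 throughout a group. Over the 3 gut markers the log2 differences between the uranyl nitrate doses ranged from -0.24 to 0.025, with 0 called. The lowest was that of vil1, at 96.8 ± 6.47 FPKM at 30 µg/L and 81.9 ± 7.61 FPKM at 300 µg/L, groups that did not overlap. The part of skin, liver and gut in the differences of cdh17 and ca2 was not tested.

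The 5 Na,K-ATPase genes of the atp1a1a cluster lie beside one another in the genome, and how reads shared between these copies were assigned is not stated. None was called in any comparison. The leading copy atp1a1a.1 was steady. In FPKM, the libraries gave 228, 199, 205 and 209 in vehicle, 216, 215, 199 and 219 in 1 µM arsenite, and 228, 226, 208 and 205 in 10 µM arsenite. With uranyl nitrate the values were 219.9, 206, 215 and 209 at the lower dose and 216, 224, 212 and 215 at the higher dose, with 200.04, 239, 228 and 216 in the mixture. All groups overlapped, and its differences from vehicle lay between 0.014 and 0.069 on the log2 scale. atp1a1a.4 ranged from 108 to 141 FPKM, atp1a1a.2 from 32.1 to 48.7, atp1a1a.3 from 9.58 to 19.3 and atp1a1a.5, a copy used by acid-secreting ionocytes in zebrafish, from 1.00 to 2.50 FPKM. Values above vehicle were seen for 5 of 5 genes in 10 µM arsenite, 300 µg/L uranyl nitrate and the mixture, also after either rescaling of the libraries, and for 4 of 5 in the other exposures (5 of 5 at 1 µM arsenite after either rescaling). In 10 µM arsenite, 300 µg/L uranyl nitrate and the mixture, 52.8%, 48.5% and 43.9% of all genes tested lay above vehicle. The smallest log2 differences of the 5 genes there were 0.046, 0.0076 and 0.015. These comparisons share the vehicle libraries. The largest differences were those of atp1a1a.3 in the mixture (log2 difference 0.51, SE 0.132, adjusted p 0.116) and atp1a1a.5 at 300 µg/L uranyl nitrate (log2 difference 0.42, SE 0.151, adjusted p 0.147).

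Of the 9 ionocyte genes, 0 were called against vehicle and 2 were called elsewhere. trpv6 (NCBI Gene 100000322) encodes the epithelial calcium channel of the ionocytes that take up calcium. Its FPKM values were 9.32, 6.89, 5.36 and 8.76 in vehicle, 9.14, 10.6, 10.18 and 7.54 in 1 µM arsenite, and 10.7, 10.27, 11.1 and 7.19 in 10 µM arsenite. The uranyl nitrate libraries gave 8.18, 7.88, 6.83 and 5.83 at the lower dose and 5.62, 4.49, 5.04 and 4.13 at the higher dose, with 6.27, 7.77, 8.64 and 4.16 in the mixture. The 300 µg/L uranyl nitrate libraries lay below all libraries of either arsenite group and of the 30 µg/L group, and 1 vehicle library lay within their range. Against 10 µM arsenite, trpv6 was lower, from 9.82 ± 1.78 FPKM to 4.82 ± 0.650 FPKM (log2 difference -0.88, SE 0.177, adjusted p 0.0143). The call was lost in 4 of 8 leave-one-out fits (without replicate 1 or 3 of the arsenite group or replicate 2 or 4 of the uranyl nitrate group), with adjusted p-values up to 0.0643. Against vehicle the difference was -0.54 (adjusted p 0.114) at 300 µg/L uranyl nitrate and 0.34 (adjusted p 0.516) at 10 µM arsenite, and between the uranyl nitrate doses it was -0.49 (adjusted p 0.101).

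ca2 (NCBI Gene 387526), a carbonic anhydrase of acid-secreting ionocytes that other tissues express too, was lower at 300 than at 30 µg/L uranyl nitrate. FPKM was 80.2, 54.3, 67.4 and 70.8 in vehicle, 76.7, 69.1, 69.4 and 80.3 in 1 µM arsenite, and 84.3, 73.8, 76.4 and 66.6 in 10 µM arsenite. In the uranyl nitrate groups it was 82.1, 74.2, 82.4 and 86.9 at the lower dose and 61.2, 64.7, 68.8 and 61.1 at the higher dose, with 73.2, 93.6, 82.7 and 66.1 in the mixture. These 2 groups did not overlap, with the higher dose inside the vehicle range and 3 of the 4 libraries of the lower dose above it (log2 difference -0.34, SE 0.104, adjusted p 0.0495). The adjusted p lay just under the threshold and rose above it in each of the 8 leave-one-out fits (0.0514 to 0.133, the largest without uranyl nitrate 30 µg/L replicate 4). It also did so with no filter (0.0719), at the same total FPKM per library (0.0737), with no variance trend (0.0635) and with the replicate block (0.0623).

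slc12a10.2, which encodes the sodium-chloride cotransporter of a skin ionocyte type, was next in level. The libraries measured, in FPKM, 12.5, 11.0, 9.45 and 8.95 in vehicle, 16.0, 12.7, 10.8 and 18.7 in 1 µM arsenite, and 14.6, 18.2, 15.8 and 14.5 in 10 µM arsenite. Uranyl nitrate libraries stood at 16.0, 12.5, 11.8 and 12.3 at the lower dose and 12.9, 16.3, 15.0 and 16.4 at the higher dose, with 12.2, 17.7, 16.9 and 13.0 in the mixture. All 4 libraries of 10 µM arsenite (log2 difference 0.55, SE 0.146, adjusted p 0.0924) and of 300 µg/L uranyl nitrate (log2 difference 0.50, SE 0.146, adjusted p 0.0792) lay above all 4 of vehicle, without passing the threshold. The other exposures gave 0.42 at 1 µM arsenite, 0.30 at 30 µg/L uranyl nitrate and 0.47 in the mixture, with adjusted p-values of 0.476, 0.702 and 0.2. gcm2, a transcription factor gene of acid-secreting ionocytes in zebrafish, leaned the other way. In FPKM, the libraries gave 5.25, 5.75, 5.43 and 5.52 in vehicle, 5.19, 4.64, 5.89 and 4.89 in 1 µM arsenite, and 5.76, 5.64, 5.20 and 5.07 in 10 µM arsenite. With uranyl nitrate the values were 4.32, 6.06, 5.16 and 5.85 at the lower dose and 4.82, 4.21, 5.20 and 4.82 at the higher dose, with 5.72, 5.77, 6.05 and 4.31 in the mixture. Its 4 libraries at 300 µg/L uranyl nitrate lay below all vehicle libraries by a narrow margin (log2 difference -0.17, SE 0.0920, adjusted p 0.361). ca15a, another carbonic anhydrase gene, ranged from 3.32 to 8.25 FPKM. At 300 µg/L uranyl nitrate (6.99 to 8.02 FPKM) it lay above all libraries of the 30 µg/L group (5.22 to 5.91 FPKM) and of 10 µM arsenite (5.67 to 6.80 FPKM), with adjusted p-values of 0.142 and 0.471. The ionocyte fate gene foxi3a spanned 4.32 to 8.09 FPKM and the sodium-proton exchanger gene slc9a3.2 1.11 to 1.96 FPKM, with differences from vehicle between -0.14 and 0.076 on the log2 scale and between -0.0046 and 0.091 on the log2 scale, respectively.

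atp6v1aa encodes a catalytic subunit of the proton pump (V-ATPase). Its FPKM values were 6.83, 6.76, 9.32 and 2.12 in vehicle, 1.76, 5.52, 0.979 and 7.38 in 1 µM arsenite, and 7.94, 6.91, 7.21 and 3.34 in 10 µM arsenite. The uranyl nitrate libraries gave 19.1, 9.97, 2.30 and 2.40 at the lower dose and 9.38, 11.5, 8.354 and 25.3 at the higher dose, with 2.60, 2.47, 9.44 and 6.58 in the mixture. Within the group of 30 µg/L uranyl nitrate the libraries ran from 2.30 to 19.1 FPKM, and its within-group SD of 0.868 on the log2 scale was larger than that of 99.3% of the genes tested. All 4 libraries at 300 µg/L uranyl nitrate lay above all 4 of 10 µM arsenite, but the difference was not called (log2 difference 0.92, SE 0.565, adjusted p 0.522). Of 15 other V-ATPase subunit genes, atp6v1c1b (0.150 to 6.33 FPKM, SD 0.761) and atp6v0d1 (5.13 to 15.5 FPKM, SD 0.415) had the widest within-group spread, and the ubiquitous subunit gene atp6v1h had an SD of 0.0565. foxi3b, a paralog of foxi3a, rested on 0 to 50 reads. FPKM was 0.0773, 0.0223, 0.0578 and 0.0732 in vehicle, 0.746, 0.0496, 0.569 and 0 in 1 µM arsenite, and 0.697, 0.0711, 0.0386 and 0.0399 in 10 µM arsenite. In the uranyl nitrate groups it was 0.0730, 0.554, 0.115 and 0.145 at the lower dose and 0.0585, 0.420, 0.428 and 0.574 at the higher dose, with 0.0392, 0.0283, 0.0443 and 0.0267 in the mixture. It stood at or below 0.145 FPKM in 17 libraries and at or above 0.420 FPKM in 7, and these 7 came from 4 exposed groups. The mixture libraries, at 0.0267 to 0.0443 FPKM, were all low, as were those of vehicle. foxi3b passed the filter of 0.5 FPKM in 4 libraries only through libraries among these 7.

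**Figure D4:**
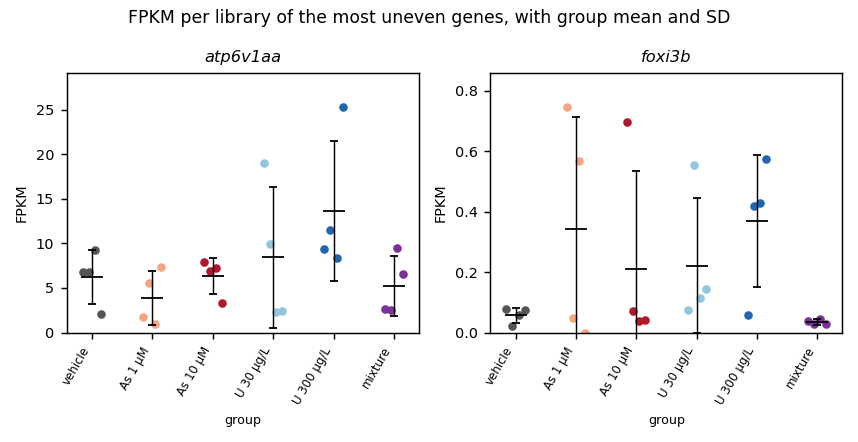
FPKM (y axis, from 0) of atp6v1aa and foxi3b in each library by group (x axis; As, sodium arsenite; U, uranyl nitrate). Points are libraries and black bars give the group mean and SD (n = 4), cut at 0. In atp6v1aa the libraries of 30 µg/L uranyl nitrate run from 2.30 to 19.1 FPKM, and foxi3b is split between 17 low and 7 higher libraries.

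stc1, a stanniocalcin gene of the hormone family that restrains calcium uptake in fish, was low. The libraries measured, in FPKM, 0.375, 0.811, 0.409 and 0.887 in vehicle, 1.27, 0.867, 0.908 and 0.495 in 1 µM arsenite, and 1.24, 1.20, 1.66 and 0.805 in 10 µM arsenite. Uranyl nitrate libraries stood at 1.03, 0.979, 0.639 and 0.584 at the lower dose and 0.826, 0.726, 0.671 and 0.626 at the higher dose, with 0.633, 0.7998, 1.01 and 0.648 in the mixture. With 6 to 32 reads behind each value, the highest levels were seen in 10 µM arsenite (log2 difference 0.46, SE 0.137, adjusted p 0.155). The gene named stc1l carries stc1 as an older name and was added after the values of stc1 were seen. It stood at 0.609 ± 0.286 FPKM in vehicle and 0.257 ± 0.149 FPKM in 10 µM arsenite (log2 difference -0.35, SE 0.140, adjusted p 0.356).

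Other genes of the same pathways were read from 8 lists with 108 symbols (more podocyte, endocytosis, nephron, tubule, Na,K-ATPase, V-ATPase and ionocyte genes and ion-regulating hormones), of which 105 were in the table and 100 were tested. Called higher were 0 of 100 in 1 µM arsenite, 1 at 10 µM, 0 in 30 µg/L uranyl nitrate, 1 at the higher dose and 2 with the mixture, and 0 were called lower in any of these, where 0.132%, 0.727%, 0%, 1.77% and 0.406% of all genes were called in either direction. At an unadjusted p under 0.05 there were 6, 19, 9, 12 and 10 of the 100, against 6.74%, 10.34%, 7.14%, 16.6% and 10.7% of all genes. At 300 µg/L uranyl nitrate both counts lay below the shares over all genes. The sodium-sulfate cotransporter gene slc13a1 rose at 10 µM arsenite from 2.75 ± 0.274 to 4.52 ± 0.644 FPKM (log2 difference 0.55, SE 0.117, adjusted p 0.0207), with the call lost in 4 of 8 leave-one-out fits (largest adjusted p 0.0991 without vehicle replicate 3) and in a fit of the 2 groups alone (0.0781). The calcitonin gene calca, whose hormone lowers blood calcium, rose at 300 µg/L uranyl nitrate from 18.05 ± 2.08 to 24.4 ± 1.14 FPKM (log2 difference 0.42, SE 0.102, adjusted p 0.0393), but was called in 1 of the 8 leave-one-out fits (largest adjusted p 0.141 without vehicle replicate 4) and in 5 of 8 other settings (largest adjusted p 0.0641, with the 2 groups alone). In the mixture the phosphate cotransporter gene slc20a1b rose from 43.6 ± 1.82 to 61.6 ± 5.62 FPKM (log2 difference 0.49, SE 0.0796, adjusted p 0.00344) and was called in all 8 such fits. The prolactin gene prl, a hormone of ion retention in freshwater fish, rose from 1.67 ± 0.532 to 3.77 ± 0.569 FPKM (log2 difference 0.85, SE 0.171, adjusted p 0.0225), and was called in 4 of the 8 (largest adjusted p 0.0831 without mixture replicate 2). Both were lost in a fit of these 2 groups alone (0.0519 for slc20a1b and 0.154 for prl).

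Between the uranyl nitrate doses, 4 of the 100 were higher and 1 lower at 300 µg/L, fewer in all than the 6.65% of all genes called there. The vitamin D hydroxylase gene cyp24a1 stood at 24.4 ± 6.39 FPKM at 30 µg/L and 59.0 ± 13.3 at 300 µg/L (log2 difference 1.25, SE 0.313, adjusted p 0.0217), with 29.1 ± 8.24 in vehicle. The ammonia channel gene rhcga rose from 25.9 ± 6.75 to 43.2 ± 3.37 FPKM (log2 difference 0.74, SE 0.199, adjusted p 0.0294), the organic cation transporter gene slc22a2 from 20.04 ± 1.22 to 24.7 ± 1.27 FPKM (log2 difference 0.29, SE 0.0659, adjusted p 0.0147) and the amino acid transporter gene slc6a19b from 16.4 ± 0.882 to 20.9 ± 0.524 FPKM (log2 difference 0.34, SE 0.0841, adjusted p 0.0214). The potassium channel gene kcnj1a.3 fell from 2.60 ± 0.289 to 0.968 ± 0.446 FPKM (log2 difference -0.90, SE 0.201, adjusted p 0.0133) and was called in all 8 leave-one-out fits. Part of the differences of kcnj1a.3 and rhcga lay in the 30 µg/L group. Against vehicle, kcnj1a.3 stood higher at 30 µg/L (log2 difference 0.65), while rhcga stood lower at 30 µg/L (-0.35) and higher at 300 µg/L (0.39). None of these differences from vehicle was called. Without a single library the call was kept in 7 of 8 fits for slc22a2, 5 for slc6a19b, 3 for cyp24a1 and 2 for rhcga, with the largest adjusted p-values of 0.0509, 0.0738 and 0.0812 for slc22a2, slc6a19b and cyp24a1 without uranyl nitrate 30 µg/L replicate 3 and of 0.0913 for rhcga without replicate 2 of that group. Against 10 µM arsenite, 300 µg/L uranyl nitrate was lower in 2 of 100 (1.03% of all genes were called), the membrane carbonic anhydrase gene ca4b (log2 difference -0.87, SE 0.147, adjusted p 0.00263) and kcnj1a.3 (log2 difference -0.85, SE 0.201, adjusted p 0.043). The call of ca4b held in all 8 leave-one-out fits and was lost in a fit of these 2 groups alone (0.107), and that of kcnj1a.3 held in 2 of 8 (largest adjusted p 0.159 without replicate 2 of the 300 µg/L group) and in 3 of 8 other settings (largest adjusted p 0.149, with the 2 groups alone).

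Within groups, some members varied together from pool to pool. Deviations from the group mean of log2(FPKM + 1) were correlated over the 24 libraries for 15 pairs of members, chosen after their values were seen from known zebrafish ionocyte types, nephron segments and neighbouring copies, with p-values from 100000 permutations of libraries within groups (two-sided) and adjusted over the 15 pairs. Since the values were known, these p-values describe the pairs and are no independent test. The strongest pair was slc12a10.2 with atp1a1a.3 (Pearson's r = 0.905, p = 1e-05, the smallest the permutations can give, adjusted p 0.00015; Spearman's rho = 0.904, p = 1e-05, adjusted p 0.00015). Without the 2 libraries furthest from the median of slc12a10.2, r was 0.882. slc12a10.2 with atp1a1a.2, a pump copy of the same ionocyte type in zebrafish, gave r = 0.774 (permutation p = 0.00059, adjusted p 0.00442) and rho = 0.719 (p = 0.00216, adjusted p 0.0143), with r = 0.672 without the 2 furthest libraries. atp1a1a.2 with atp1a1a.3 gave r = 0.739 (permutation p = 0.00161, adjusted p 0.00805) and rho = 0.690 (p = 0.00286, adjusted p 0.0143), with r = 0.692, but these neighbouring copies may share reads.

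Weaker pairs stayed under an adjusted p of 0.05 for Pearson's r. slc9a3.2 with atp1a1a.5 gave r = 0.553 (adjusted permutation p 0.0391) and rho = 0.564 (0.0426), and gcm2 with ca15a r = 0.539 (0.0391) and rho = 0.502 (0.0498), both pairs from acid-secreting ionocytes. gcm2 with foxi3a gave r = 0.676 (0.0391) but rho = 0.496 (0.0772), and was weaker without the 2 furthest libraries (r = 0.376). Without the 2 furthest libraries r was 0.455 for slc9a3.2 with atp1a1a.5 and 0.385 for gcm2 with ca15a. lrp2a with cubn gave r = 0.510 (0.056) and rho = 0.517 (0.0498). The cotransporter pair slc12a1 and slc12a3 gave r = 0.363 (adjusted permutation p 0.293), and 0.051 without the 2 furthest libraries. The remaining 7 pairs had adjusted p-values of 0.242 or more for r. All points share their library, so that depth and the makeup of each pool of larvae enter both values of a pair.

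**Figure D5:**
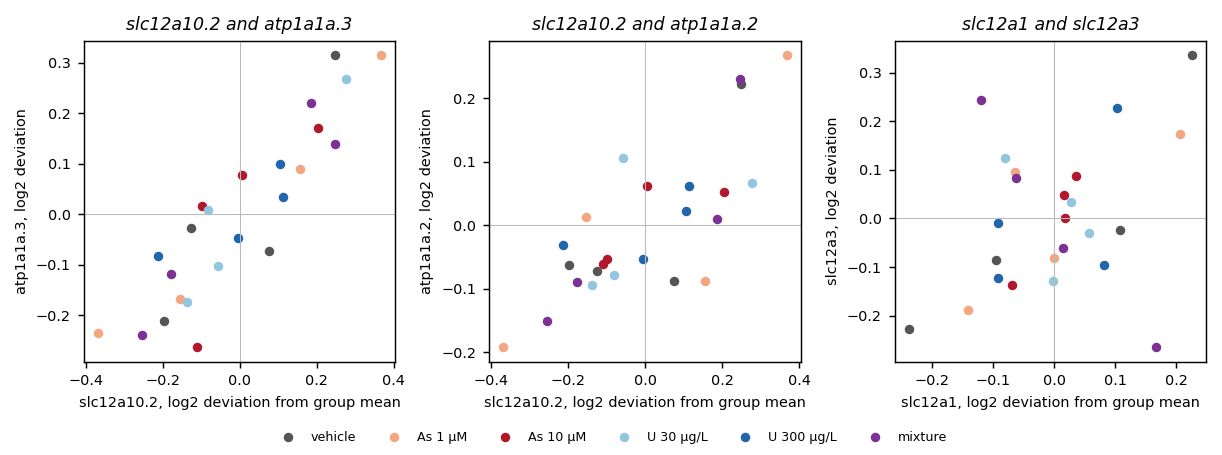
Deviation of each library from its group mean on the log2(FPKM + 1) scale for 3 pairs of genes (x and y axes), with 1 point per library and colours for the 6 groups (As, sodium arsenite; U, uranyl nitrate). slc12a10.2 and atp1a1a.3 lie along a line (r = 0.905), slc12a10.2 and atp1a1a.2 less closely (r = 0.774), and slc12a1 and slc12a3 scatter (r = 0.363).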

How the data were processed

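Poly(A) RNA of 24 whole-larva pools was sequenced, and the authors deposited 1 table of FPKM for 39974 genes. Per the submitters' processing notes the tools were HISAT2 2.1.0, HTSeq 0.6.1 and DESeq2 1.10.1 and the build was GRCz11; their settings, the annotation and strand use are not given in the sources used here. All 24 columns matched a label and 0 were left unused. Names were taken from a RefSeq table of another assembly (GRCz12tu), which named 32044 of the gene numbers, so no coordinates or sequences are printed.

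Whole reads were recovered from 99.98% of the values above 0 (within 0.01 read). Genes with at least 0.5 FPKM in at least 4 libraries were fitted on log2(FPKM + 1) with limma 3.58.1 in R 4.3.3, using 1 mean per group, 18 residual degrees of freedom, a variance trend and Benjamini-Hochberg adjustment over 22682 genes in each of 11 comparisons. A value of 1 added to FPKM understates the change of low genes. The fit was also run on simulated reads with the same dispersion for all genes and groups, which cannot show how calls depend on unequal spread. limma-voom on recovered reads, another added value, no filter, other scalings, a fit without the trend, a fit of the compared groups alone, a replicate block and fits without each library were tried. The members and lists were chosen with earlier results of these data known, and the 15 gene pairs after their values were seen. Library values are given for members called in a comparison, without overlap against vehicle, or leading their role by level; those of atp6v1aa and foxi3b were added after their values were seen.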

Additional observations from a re-analysis of the deposited data

Results flagged for a closer look

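A library stood apart from the other 3 of its group in 10 of 216 combinations of gene and group tested with Dixon's ratio (gap over range), where 1 in 20 gives 10.8 by chance. For nphs1, 1 library of uranyl nitrate at 300 µg/L was high (1.21 FPKM against 0.851 to 0.886, ratio 0.902) and 1 of the mixture low (0.612 against 1.06 to 1.14, ratio 0.835). For wt1a, 1 vehicle library was low (1.47 FPKM against 1.79 to 1.83, ratio 0.902). For amn, 1 library of arsenite at 1 µM was high (4.601 FPKM against 2.77 to 2.99, ratio 0.882) and 1 of the mixture low (2.82 against 2.95 to 2.98, ratio 0.834). For slc34a1a, 1 library of arsenite at 1 µM was low (2.33 FPKM against 3.03 to 3.14, ratio 0.866). For trpm6, 1 library of uranyl nitrate at 30 µg/L was high (3.60 FPKM against 3.00 to 3.06, ratio 0.899). For atp1a1a.2, 1 vehicle library was high (40.0 FPKM against 32.1 to 32.6, ratio 0.93). For foxi3b, 1 library of arsenite at 10 µM (0.697 FPKM against 0.0386 to 0.0711, ratio 0.951) and 1 of uranyl nitrate at 30 µg/L (0.554 against 0.0730 to 0.145, ratio 0.851) were high.

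In 4 genes 2 exposures differed directly in the limma fit. Uranyl nitrate at 300 µg/L was below 30 µg/L for ca2 (-0.343 on the log2 scale) and cdh17 (-0.22), and below arsenite at 10 µM for slc26a1 (-0.422) and trpv6 (-0.884). The 2 calls are 5.56% of the 36 members in each comparison. Of all genes, 6.65% were called between the uranyl nitrate doses and 1.03% between the high doses. The call held in 0 of 8 leave-one-out fits for ca2, 5 for cdh17, 8 for slc26a1 and 4 for trpv6.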

How the results depend on the processing

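No called member changed direction under any alternative run. The 2 members called in uranyl nitrate at 300 µg/L against vehicle became 0 when only those groups were fitted and 1 to 3 without single libraries (1 without vehicle replicate 1 or 3). Same-numbered libraries did not deviate together over all genes (correlations -0.155 to 0.107 over 60 pairs). This cannot exclude a shared spawning or batch that touches a part of the genes. With a replicate block 4 members were called at 300 µg/L against vehicle. Between the uranyl nitrate doses the 2 called became 1 with no filter, 1 with no variance trend, 1 with the replicate block, 0 at the same total FPKM per library, 4 when only those groups were fitted, and 0 to 2 without single libraries. Between uranyl nitrate at 300 µg/L and arsenite at 10 µM the count was 1 to 2 without single libraries. Against vehicle, the 0 called at 10 µM arsenite became 0 to 1 and the 0 in the mixture 0 to 2 (slc12a3 in the first and slc12a1 and slc12a3 in the second, without vehicle replicate 2). The other alternatives left the members' counts within 1.5 times, and the causes of these changes were not tested. Over all genes, fitting the compared groups alone took the calls at 300 µg/L from 402 to 96, at 10 µM arsenite from 165 to 58, in the mixture from 92 to 17, at 1 µM arsenite from 30 to 5, and between the high doses from 233 to 130; without the variance trend they were 243 at 300 µg/L and 15 at 1 µM arsenite. Without single libraries the count at 300 µg/L was 63 to 769. Depth limits stc1 (6 to 32 reads) and foxi3b (0 to 50 reads) most.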
